A study of Mus musculus with 32 samples.

Results

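The genes described here encode enzymes that add or remove methyl groups on histone tails or remove acetyl groups from them. They were the entries of the deposited table whose symbol began with Kdm1 to Kdm8, Kmt2, Kmt5, Setd or Hdac, or was Ezh1 or Ezh2, with Kdm5c, Kdm5d and Kdm6a left out. The rule found 44 of 16634 entries, and it used names only, no measured value. Histone methyltransferases (KMT2, SETD and EZH enzymes) write methyl marks on lysines, and lysine demethylases (KDM enzymes) erase them. Marks on H3K4 are found at active promoters and enhancers, while marks on H3K9 and H3K27 go with silent chromatin. Histone deacetylases (HDACs) are mostly recruited by co-repressors. In skeletal muscle the class IIa HDACs bind the MEF2 transcription factors and couple nerve activity to gene expression. In the circadian clock HDAC3 works with co-repressors and the REV-ERB receptors, and in mouse cells KDM5A and KMT2A have been tied to the CLOCK and BMAL1 activators.

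RNA was measured by sequencing in whole gastrocnemius, a hind limb muscle of mainly fast fibres, from mice 10 weeks old on a mixed background. The tested mice, called mutants here, carried Sf1-Cre and floxed alleles of Sirt1 (Sf1-Cre; Sirt1loxP/loxP). The controls had the same floxed alleles and, per the series description, no Cre, so the transgene and the deletion cannot be told apart. Muscles were taken at Zeitgeber time (ZT, hours that by convention count from lights on) 0, 6, 12 and 18, with 4 mice in each of 8 groups, 32 in all. SIRT1 is an NAD-dependent deacetylase, and Sf1-Cre directs its deletion to SF1 neurons of the ventromedial hypothalamus; muscle itself was not targeted, and the other tissues that make SF1, such as the adrenal cortex, were not examined here. The comparison asks whether a change in these neurons reaches the daily course of muscle RNA. Values are FPKM, fragments scaled by transcript length and library size, so that levels can be compared between genes per length. Absolute read depth is unknown. In such bulk samples, fewer cells of a type and less RNA per cell cannot be told apart.

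Sirt1 RNA in muscle lay between 4.02 and 6.32 FPKM in mutants and between 4.57 and 6.65 FPKM in controls, and this checks no label, because the deletion lies elsewhere. All 12 skeletal muscle markers were present, with a summed level of 70130 to 150100 FPKM. The summed lymphocyte markers ranged from 1.94 to 128 FPKM and the summed adipocyte markers from 579 to 3303 FPKM among libraries. Libraries are numbered 0 to 3 within a group, as in the table. The library numbered 2 of mutants at ZT0 stood apart: it held the highest value of all 32 libraries in 20% of tested genes and in 6 members. It also held the lowest value in 9.12% of tested genes and in 7 members. The library numbered 0 of mutants at ZT18 held the lowest value in 12.7% of tested genes and in 7 members. It held the highest in 8.37% and in 4 members. The library numbered 1 of mutants at ZT12 held the highest in 8.83% and the lowest in 9.16% of tested genes. The labels tie index sequences to times: the 8 indexes of ZT0 recur at ZT12, and the 8 of ZT6 recur at ZT18. The sources used here do not give the sequencing pool of each sample, so an effect of the pool on a comparison between times cannot be told apart from time.

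Promoter windows of 4 members are shown first, from 250 bases before to 50 after the start site, from RefSeq (GRCm38.p6, the build also called mm10). Ezh1 and Setd4 are shown because both had their lowest mean at ZT6 and were called in the 24 h test below, Setd4 with the limit given there. Kdm1a is shown because its mean was lower in mutants at several times, though no difference passed the tests below. Hdac5 is shown because 1 library stood far apart. Capitals mark a motif. Kdm1a has an ROR element (TAGGTCA or TGGGTCA), the site of ROR and REV-ERB receptors, and Hdac5 an E-box (CACGTG), the site of CLOCK and BMAL1.
Ezh1, chr11:101226414-101226713, minus strand: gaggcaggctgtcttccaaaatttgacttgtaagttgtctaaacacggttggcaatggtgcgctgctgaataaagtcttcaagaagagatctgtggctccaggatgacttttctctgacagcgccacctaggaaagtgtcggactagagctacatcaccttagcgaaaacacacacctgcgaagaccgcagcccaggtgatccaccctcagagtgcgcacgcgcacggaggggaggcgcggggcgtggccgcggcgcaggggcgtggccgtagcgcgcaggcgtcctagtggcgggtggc
Setd4, chr16:93603766-93604065, minus strand: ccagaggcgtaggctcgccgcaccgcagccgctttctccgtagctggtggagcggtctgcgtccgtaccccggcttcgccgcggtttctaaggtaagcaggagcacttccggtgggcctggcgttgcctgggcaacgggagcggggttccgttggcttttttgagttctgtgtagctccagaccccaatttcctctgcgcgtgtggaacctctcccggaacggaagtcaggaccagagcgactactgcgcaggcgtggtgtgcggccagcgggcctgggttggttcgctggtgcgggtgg
Kdm1a, chr4:136602674-136602973, minus strand: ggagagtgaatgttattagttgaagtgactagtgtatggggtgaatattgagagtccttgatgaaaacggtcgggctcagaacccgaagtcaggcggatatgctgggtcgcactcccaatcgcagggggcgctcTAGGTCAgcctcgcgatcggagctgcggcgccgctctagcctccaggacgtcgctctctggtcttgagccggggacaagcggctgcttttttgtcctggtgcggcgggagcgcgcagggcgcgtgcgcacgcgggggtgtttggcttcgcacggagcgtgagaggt
Hdac5, chr11:102230123-102230422, minus strand: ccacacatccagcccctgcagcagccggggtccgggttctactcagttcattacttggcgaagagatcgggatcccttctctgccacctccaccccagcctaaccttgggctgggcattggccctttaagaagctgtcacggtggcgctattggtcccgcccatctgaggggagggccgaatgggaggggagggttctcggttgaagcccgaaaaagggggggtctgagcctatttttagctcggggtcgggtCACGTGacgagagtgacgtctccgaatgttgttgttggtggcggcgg
Of the 44 members, 33 had a window in the RefSeq table. Of all 32851 windows searched on both strands, 7.15% held CACGTG, 6.45% held an ROR element, 4.68% held the second E-box form CACGTT, 1.66% a D-box (TTATGTAA or TTATGCAA) and 1.79% the cAMP response element TGACGTCA. Counting the window nearest to each member's start, 1 member held CACGTG (Hdac5), 2 held CACGTT (Ezh2 and Kdm7a), and 3 held an ROR element (Kdm1a, Kdm2b and Kdm4c). None of these 33 windows held a D-box or a cAMP response element. Some members have more than 1 window. Over all 46 windows, 2 members held CACGTG (Hdac5 and Kdm4c) and 4 held an ROR element (Hdac9, Kdm1a, Kdm2b and Kdm4c). The percentages above count windows, not genes, so they are not a like share for either count. The start site of the Hdac4 window lay 31948 bases from the start of its entry. Of the 10 members with a 24 h rhythm below, 6 had a window (Ezh1, Hdac4, Hdac7, Setd4, Kmt2c and Kdm3a), and none of these held a motif searched here. A match is a description of these letters and no test of binding.

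Muscle RNA of these enzymes spanned a wide range of levels, with Setd7 and Setd8 at the top. Setd7, an H3K4 monomethyltransferase that also acts on other proteins, had the highest level, 71.4 ± 7.42 FPKM in mutants and 73.1 ± 8.00 FPKM in controls (SD, n = 16 each). Setd8, the older symbol of Kmt5a, which places the single methyl group on H4K20, averaged 50.4 FPKM over the 32 libraries. Setd3, which methylates a histidine of actin, averaged 38.6 FPKM, below Hdac3 (42.5 FPKM) and Hdac2 (41.2 FPKM). For Setd7, Setd8 and Setd3 the ranges of the 16 mutant and 16 control libraries overlapped. At the other end, Setd4 averaged 0.711 FPKM and just passed the filter for testing, which asked for 1 FPKM in 4 libraries: 4 libraries reached it, all of them at ZT0 or ZT12. Kdm4d, an H3K9 demethylase, did not pass that filter: it was listed at 0 in 15 libraries and reached at most 0.0567 FPKM.

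Close relatives differed widely in level. Ezh1, the H3K27 methyltransferase of non-dividing cells, averaged 11.3 FPKM, and Ezh2, its counterpart in dividing cells, 2.31 FPKM. The ratio of Ezh1 to Ezh2 was above 1 in every library, with a lowest value of 3.12, a median of 5.11 and a highest of 7.69. In mutants this ratio averaged 5.02 ± 1.80 at ZT0 and 3.69 ± 0.304 at ZT6, then 4.91 ± 0.365 at ZT12 and 5.82 ± 0.856 at ZT18 (SD, n = 4 each). In controls it averaged 5.50 ± 1.45 at ZT0 and 4.34 ± 0.691 at ZT6, then 4.98 ± 1.33 at ZT12 and 6.44 ± 1.08 at ZT18. Both genotypes thus had their lowest mean ratio at ZT6 and their highest at ZT18, and the ratio was not tested for time.

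Among class I HDACs, the catalytic subunits of co-repressor complexes, Hdac3 led. It averaged 41.7 ± 3.68 FPKM in mutants and 43.3 ± 3.85 FPKM in controls (SD, n = 16 each). Hdac2 was close to it, with 40.0 ± 6.05 FPKM in mutants and 42.4 ± 3.23 FPKM in controls. Their relatives were low: Hdac8 averaged 3.16 FPKM and Hdac1 2.09 FPKM over all libraries. The ratio of Hdac2 to Hdac1 had a median of 20.2 and a range from 12.3 to 37.8. Among class IIa HDACs, Hdac5 was the most abundant, with a median ratio to Hdac4 of 3.92. Hdac7 averaged 9.57 FPKM, Hdac4 6.48 FPKM and Hdac9 2.56 FPKM. Hdac11, the class IV enzyme, averaged 5.07 FPKM, and Hdac6, which deacetylates tubulin, 2.67 FPKM.

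Among demethylases, Kdm1a (LSD1, which removes mono- and dimethyl marks from H3K4) led with 12.3 FPKM over all libraries. It was followed by Kdm7a, which acts on H3K9 and H3K27, at 11.1 FPKM. Kdm5a, an H3K4 demethylase, averaged 4.23 ± 0.528 FPKM in mutants and 4.37 ± 0.325 FPKM in controls (SD, n = 16 each). Kdm5b was the lowest of the H3K4 demethylases, at 2.89 FPKM. Kdm8 was the lowest tested demethylase, at 2.23 FPKM. Within the KMT2 and SETD1 enzymes, Kmt2e was highest, at 8.62 FPKM, and Setd1b lowest, at 2.29 FPKM.

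The 43 tested members had a lower median spread within groups than all tested genes. This comparison was not matched for level, and the log2 scale used understates changes of low genes. The median SD within a group was 0.13 on the log2(FPKM + 1) scale, against 0.176 over all 11975 tested genes. Kdm3b, an H3K9 demethylase, had the smallest SD among members, 0.0638, and Hdac5 the largest, 0.471. The highest group mean was a median of 1.23 times the lowest in FPKM, against 1.32 over all tested genes.

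**Figure D1:**
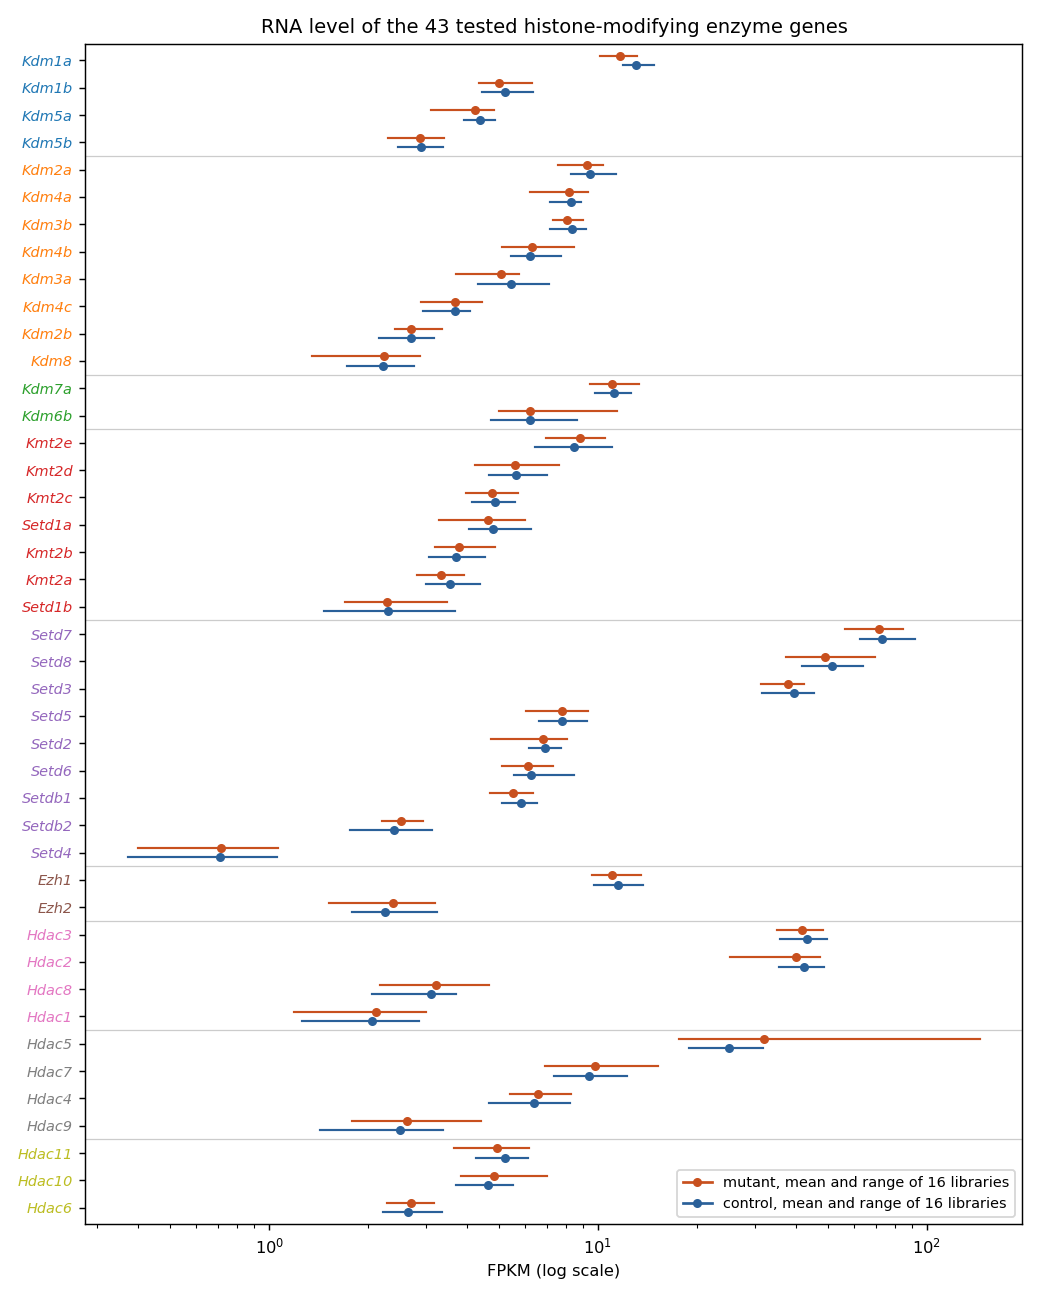
RNA level in FPKM on a log axis of the 43 tested members, grouped by enzyme class with class colours on the names and lines between classes; the upper point of each pair is the mean of 16 mutant libraries, the lower the mean of 16 control libraries, and bars run from the lowest to the highest library. Setd7, Setd8, Hdac3, Hdac2 and Setd3 lie highest, Setd4 lowest, and the long bar of Hdac5 comes from 1 mutant library at 145 FPKM.

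Over both genotypes, 10 of 43 members had a 24 h rhythm, and 11.4% of all tested genes did. This test fits a cosine and a sine of 24 h to the 4 time means, with limma and an adjusted p under 0.05 over all tested genes; amplitude is the log2 distance from mean to peak. The 10 members were Kmt2e, Kdm6b, Ezh1, Hdac4, Setd1b, Kdm2a, Hdac7, Setd4, Kmt2c and Kdm3a. Setd4 entered the test only through ZT0 and ZT12 libraries, and without it the count was 9 of 42. The 10 came from the KMT2 and SETD1 enzymes (3 of 7), the class IIa HDACs (2 of 4), the H3K9 and H3K36 demethylases (2 of 8), the EZH enzymes (1 of 2), the H3K27 group of demethylases (1 of 2) and the other SETD enzymes (1 of 9). None of the 4 H3K4 demethylases, 4 class I HDACs or 3 class IIb and IV HDACs passed. Without the library numbered 2 of mutants at ZT0, the count stayed at 10 with the same members. Without the library numbered 0 of mutants at ZT18, the count was also 10, with Hdac5 called and Kdm3a not. With only genes of at least 5 FPKM on average tested, 6 members passed.

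The amplitudes were small. Among the 10 members, Setd4 included, they ran from 0.0864 to 0.204 with a median of 0.14 on the log2 scale, against a median of 0.215 in the other 1361 rhythmic genes. These medians cover only genes that passed, and members had a smaller spread within groups, which lets smaller amplitudes pass. Over all 43 tested members the median amplitude was 0.0625, against 0.0729 over all tested genes. The 14 rhythmic genes of the 17 listed for the core clock had a median of 0.816. Fitted peaks lay between ZT18 and ZT24 in 4 members, Setd4 among them, against 31.4% of all rhythmic genes. In 5 members they lay between ZT0 and ZT6, against 37.9%. They lay between ZT6 and ZT12 in 1 member, against 15.1%, and between ZT12 and ZT18 in none, against 15.7%. With 4 times, a peak time is a fitted value and its precision is limited. Gaps between times given below are for members picked by this test, and their share over all tested genes was not counted.

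**Figure D2:**
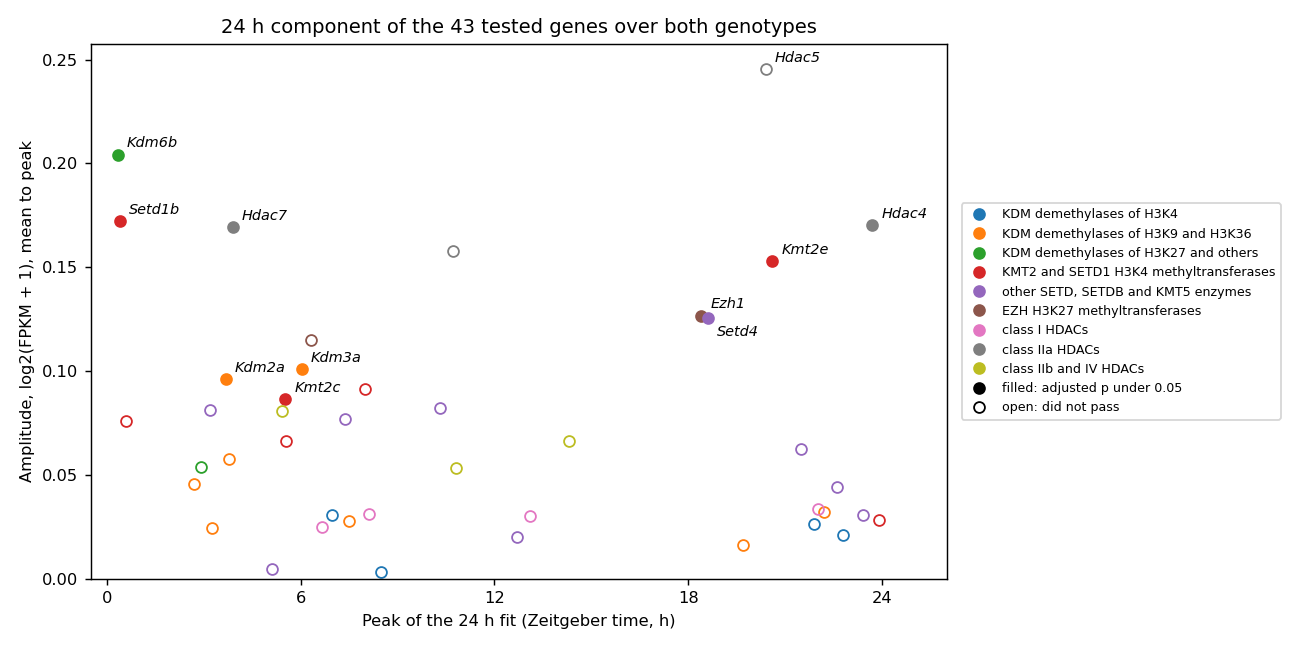
Fitted peak time (hours, ZT) against amplitude (log2(FPKM + 1), mean to peak) of the 24 h component over both genotypes for the 43 tested members, with colours for enzyme classes and filled points for an adjusted p under 0.05. The 10 filled points lie from ZT0.333 to ZT6.03 and from ZT18.4 to ZT23.7, with amplitudes up to 0.204 for Kdm6b; Hdac5, drawn open and highest, carries the library at 145 FPKM.

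Kmt2e (MLL5, a relative of the KMT2 enzymes that binds trimethylated H3K4 and is thought to lack methyltransferase activity), chr5:23434429-23616571, peaked between ZT18 and ZT0. Mutants had 6.97, 8.42, 10.5 and 8.86 FPKM at ZT0, 8.74, 7.76, 7.56 and 7.93 at ZT6, 9.13, 9.49, 8.70 and 8.97 at ZT12, and 8.39, 9.41, 10.4 and 9.55 at ZT18. Controls had 10.2, 10.5, 10.4 and 11.0 FPKM at ZT0, 6.96, 6.43, 7.04 and 8.00 at ZT6, 7.55, 7.24, 7.04 and 7.76 at ZT12, and 7.17, 7.94, 9.86 and 10.1 at ZT18. In controls all ZT0 libraries lay above those of the other times, while in mutants the ZT0 libraries spread over the whole range of the day. Kmt2e did not pass for a difference in rhythm between genotypes (limma, adjusted p = 0.88). Its amplitude over both genotypes was 0.15 ± 0.033 (SE) with a peak at ZT20.6 (limma, adjusted p = 0.00643). It held in all 32 fits that left out 1 library.

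Kdm6b (JMJD3, which removes di- and trimethyl marks from H3K27), chr11:69398518-69413675, was highest at ZT0. Mutants had 7.22, 6.11, 11.4 and 4.99 FPKM at ZT0, 6.29, 5.38, 5.74 and 5.38 at ZT6, 6.28, 6.40, 5.23 and 5.26 at ZT12, and 6.39, 5.23, 6.58 and 5.58 at ZT18. Controls had 7.26, 7.41, 8.06 and 8.62 FPKM at ZT0, 5.71, 6.32, 6.24 and 6.80 at ZT6, 4.92, 4.72, 5.32 and 5.15 at ZT12, and 5.39, 5.48, 5.93 and 5.91 at ZT18. The control libraries of ZT0 lay above all other controls, and those of ZT12 below all others. The mutant libraries of ZT0 held both the highest and the lowest mutant value. Kdm6b had no unadjusted p under 0.05 for a difference in rhythm between genotypes (limma). The amplitude over both genotypes was 0.20 ± 0.0452 with a peak at ZT0.333 (limma, adjusted p = 0.00806). Without the mutant library at 11.4 FPKM the amplitude was 0.15 and the adjusted p 0.00422.

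Ezh1, chr11:101191115-101226463, was lowest at ZT6 and highest at ZT18. Mutants had 10.7, 10.1, 11.1 and 10.8 FPKM at ZT0, 9.85, 9.60, 10.3 and 10.4 at ZT6, 12.2, 11.3, 10.1 and 11.0 at ZT12, and 10.6, 13.5, 12.0 and 12.8 at ZT18. Controls had 11.2, 13.1, 10.9 and 13.6 FPKM at ZT0, 9.74, 10.5, 10.1 and 10.4 at ZT6, 12.2, 11.4, 11.2 and 10.1 at ZT12, and 10.8, 11.4, 13.5 and 13.7 at ZT18. Every ZT18 library of either genotype lay above every ZT6 library. The amplitude was 0.13 ± 0.0287 with a peak at ZT18.4 (limma, adjusted p = 0.00996). Ezh2, which shares the PRC2 complex, peaked at ZT6.31 in the fit and did not pass (amplitude 0.11, adjusted p = 0.239).

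Hdac4, which binds MEF2 and shuttles between nucleus and cytoplasm, chr1:91932749-92148393, was high at ZT0 and low at ZT12. Mutants had 7.85, 6.23, 8.28 and 5.58 FPKM at ZT0, 6.99, 5.42, 6.95 and 7.19 at ZT6, 5.86, 5.42, 5.65 and 5.74 at ZT12, and 6.97, 7.71, 7.29 and 5.70 at ZT18. Controls had 7.42, 7.53, 7.75 and 8.24 FPKM at ZT0, 6.34, 7.23, 5.47 and 5.78 at ZT6, 4.66, 6.29, 6.23 and 4.85 at ZT12, and 5.81, 5.37, 6.58 and 6.97 at ZT18. The control libraries of ZT0 lay above all other controls, and in mutants ZT0 overlapped with every other time. Hdac4 had no unadjusted p under 0.05 for a difference in rhythm between genotypes (limma). Its amplitude over both genotypes was 0.17 ± 0.039 with a peak at ZT23.7 (limma, adjusted p = 0.0109). With weights for library quality it did not pass (amplitude 0.14, adjusted p = 0.0747 in limma).

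Setd1b, the catalytic subunit of a complex that trimethylates H3K4, chr5:123142193-123168630, was highest at ZT0. Mutants had 2.39, 2.43, 3.47 and 2.02 FPKM at ZT0, 2.18, 2.30, 2.24 and 2.48 at ZT6, 2.10, 2.52, 1.70 and 2.05 at ZT12, and 1.91, 1.96, 2.69 and 2.16 at ZT18. Controls had 2.31, 2.93, 3.12 and 3.68 FPKM at ZT0, 1.92, 1.90, 2.22 and 2.64 at ZT6, 1.47, 1.94, 1.86 and 2.15 at ZT12, and 1.95, 2.04, 2.42 and 2.10 at ZT18. The ZT0 libraries of controls lay above all control libraries of ZT12, and the mutant ranges overlapped at all times. Setd1b did not pass for a difference in rhythm between genotypes. The amplitude over both genotypes was 0.17 ± 0.0405 with a peak at ZT0.412 (limma, adjusted p = 0.0135).

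**Figure D3:**
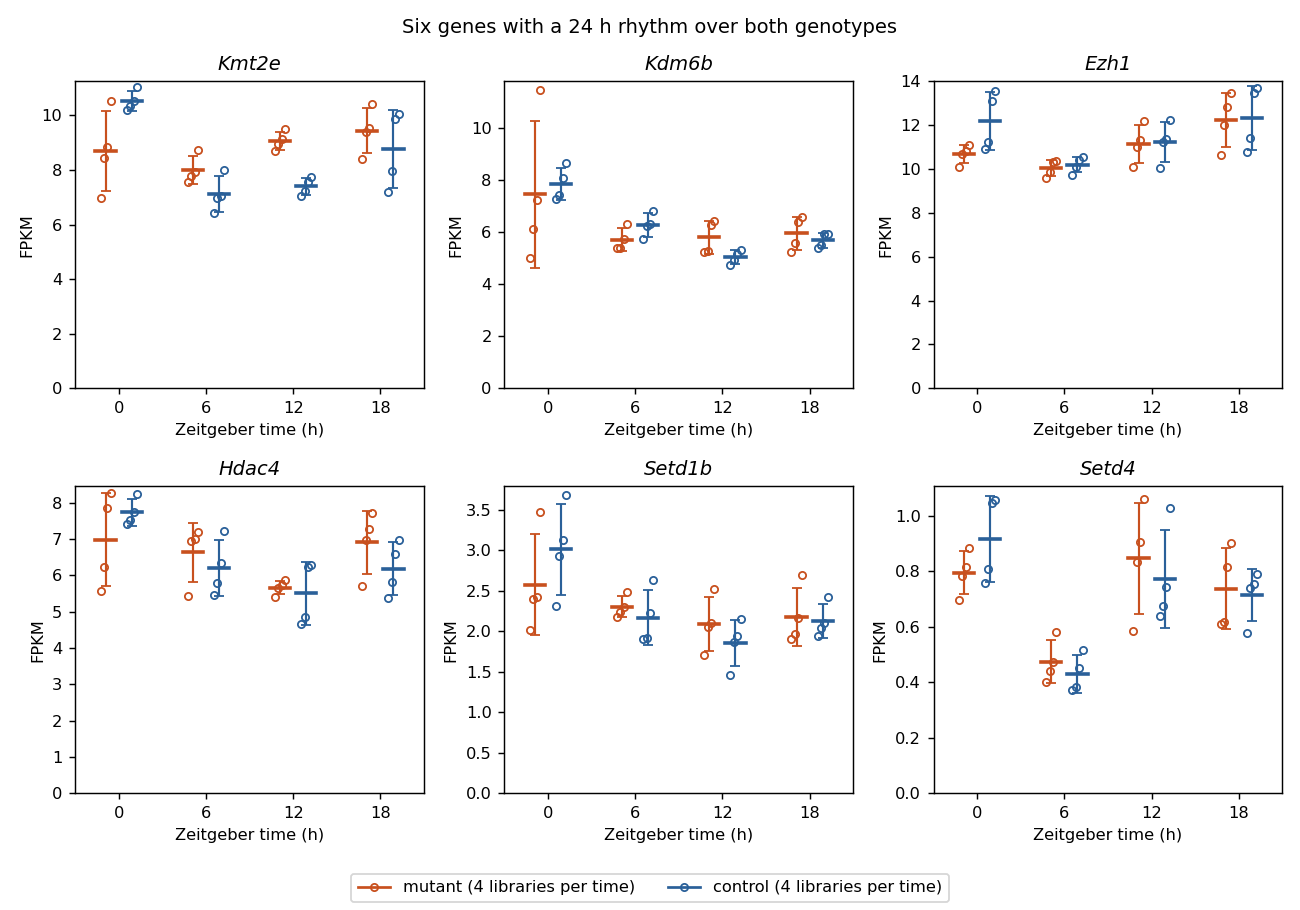
FPKM by Zeitgeber time (hours) of 6 members called in the 24 h test, Setd4 with the limit given in the text. Mutants are drawn left of controls at each time. Circles are libraries (4 per group), thick lines are means and error bars are SD. Control libraries of ZT0 stand above the rest of the day for Kmt2e (10.2 to 11.0 FPKM), Kdm6b and Hdac4, and Setd4 is lowest at ZT6 in both genotypes. The share of all tested genes with such gaps was not counted, and no member passed for a difference in rhythm between genotypes.

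The other rhythmic members were Kdm2a, an H3K36 demethylase that binds CpG islands, Hdac7, Setd4, Kmt2c, which methylates H3K4 at enhancers, and Kdm3a, an H3K9 demethylase. Hdac7, chr15:97784365-97844502, had a lowest, median and highest value of 8.87, 11.0 and 15.2 FPKM at ZT0, 8.10, 9.94 and 11.0 FPKM at ZT6, 8.33, 9.48 and 11.9 FPKM at ZT12, and 6.91, 7.71 and 8.61 FPKM at ZT18 (n = 8 each). All its ZT18 libraries lay below all its ZT0 libraries. Its amplitude was 0.17 ± 0.0421 with a peak at ZT3.9 (limma, adjusted p = 0.0209). Hdac7 is known for its role in endothelial cells, and 6 of 10 endothelial markers were rhythmic. The summed endothelial markers were 201 to 270 FPKM at ZT0 and 179 to 199 FPKM at ZT18 in mutants, and 238 to 256 FPKM at ZT0 and 170 to 197 FPKM at ZT18 in controls. Their part in the Hdac7 result was not tested. Kdm2a, Kmt2c and Kdm3a had amplitudes of 0.10, 0.09 and 0.10 and peaks at ZT3.68, ZT5.52 and ZT6.03, and all 3 had their lowest mean at ZT18.

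Setd4, chr16:93583461-93603815, was lowest at ZT6 in both genotypes. Mutants had 0.816, 0.783, 0.885 and 0.697 FPKM at ZT0, 0.442, 0.400, 0.580 and 0.474 at ZT6, 0.835, 0.906, 0.585 and 1.06 at ZT12, and 0.619, 0.904, 0.610 and 0.815 at ZT18. Controls had 0.757, 1.06, 0.810 and 1.04 FPKM at ZT0, 0.451, 0.372, 0.382 and 0.516 at ZT6, 0.677, 0.639, 0.744 and 1.03 at ZT12, and 0.742, 0.753, 0.577 and 0.790 at ZT18. Within each genotype, every ZT6 library lay below every library of the other times, by little at the nearest values. Of its 4 libraries at 1 FPKM or more, 1 was a mutant at ZT12, 2 were controls at ZT0 and 1 was a control at ZT12. Setd4 was thus tested through the times at which it was high, so both results that follow are values only and no evidence of a rhythm. The 24 h amplitude was 0.13 ± 0.0316 with a fitted peak at ZT18.6. The mean level was, however, higher at ZT0 (0.856 FPKM) and ZT12 (0.810 FPKM) than at ZT18 (0.726 FPKM). The 12 h component, the mean of ZT0 and ZT12 minus that of ZT6 and ZT18, was 0.21 ± 0.0446 and did not pass. The values are near the filter, where log2(FPKM + 1) understates changes. No member passed for the 12 h component, against 0.0668% of all tested genes. An unadjusted p under 0.05 in limma was found in 11 of 43, against 14.1%. ZT0 and ZT12 share 1 set of 8 indexes, and ZT6 and ZT18 share another. The 12 h component, for Setd4 and for every other gene, thus cannot be told apart from a difference between index sets.

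Within genotypes fewer members passed. In mutants no member had a 24 h rhythm at an adjusted p under 0.05, against 3.92% of all tested genes, and 7 of 43 had an unadjusted p under 0.05, against 14.4%. The smallest adjusted p in mutants were those of Kmt2c (amplitude 0.12, limma, adjusted p = 0.0923) and Ezh1 (0.13, adjusted p = 0.156). In controls 4 of 43 members passed, against 5.55% of all tested genes. Kmt2e had an amplitude of 0.26 in controls (limma, adjusted p = 0.00237), Kdm6b 0.28 (adjusted p = 0.0203), Setd1b 0.24 (adjusted p = 0.0269) and Hdac4 0.22 (adjusted p = 0.0431). The corresponding amplitudes in mutants were 0.11 for Kmt2e, 0.13 for Kdm6b, 0.10 for Setd1b and 0.13 for Hdac4. These 4 were picked by their result in controls, which favours higher amplitudes there. Over all 43 members the median amplitude was 0.083 in mutants and 0.0702 in controls. Over all tested genes it was 0.0906 in mutants and 0.0981 in controls. The control count rested on single libraries: it was 1, with Kmt2e, without the library numbered 3 of ZT0 or that numbered 0 of ZT12, and 2 without the library numbered 1 or 2 of ZT0.

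A call in one genotype and none in the other does not show a difference, and the difference itself was tested. No member passed for a difference in 24 h rhythm, and 0% of all tested genes did. An unadjusted p under 0.05 was found in 4 members (Kmt2e, Kmt2a, Setd1a and Setdb2), against 5.34% of all tested genes. For Kmt2e the amplitude of the difference was 0.26 ± 0.066 (limma, unadjusted p = 0.00192, adjusted p = 0.88). For Kmt2a it was 0.17 ± 0.054 (unadjusted p = 0.0132, adjusted p = 0.88 in limma).

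No member differed between mutants and controls over all times at an adjusted p under 0.05, against 0.0251% of all tested genes (limma). The median difference, mutant minus control, was -0.00845 on the log2 scale among members and 0.00231 over all tested genes, and 16 of 43 members were higher in mutants, against 51.3%. Kdm1a and Kdm3a had an unadjusted p under 0.05, both lower in mutants; 6.48% of all tested genes passed at this p in either direction and 3.16% were lower. Over all times the 8 slow fibre markers and 12 skeletal muscle markers were all lower in mutants, with medians of -0.32 and -0.10, and the 18 lymphocyte and 8 macrophage markers all higher, with medians of 0.55 and 0.20. Of the 12 adipocyte markers, 11 were higher, with a median of 0.43, and no marker of these lists passed the adjusted threshold. With lymphocyte and adipocyte scores as covariates the members' median was -0.03, and the part of the other markers was not tested.

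Kdm1a, chr4:136550533-136602723, whose promoter window with an ROR element is printed above, had the smallest p. Mutants had 11.2, 12.1, 10.2 and 11.4 FPKM at ZT0, 13.1, 11.9, 12.6 and 11.3 at ZT6, 10.5, 11.4, 11.8 and 12.1 at ZT12, and 11.2, 13.0, 11.9 and 10.8 at ZT18. Controls had 14.0, 13.6, 12.4 and 14.8 FPKM at ZT0, 12.2, 12.8, 12.0 and 12.9 at ZT6, 13.2, 12.6, 12.2 and 12.5 at ZT12, and 14.1, 12.3, 13.5 and 13.3 at ZT18. All mutant libraries lay below all control libraries at ZT0 and at ZT12, and the genotypes overlapped at ZT6 and ZT18. Averaged over times the difference was -0.15 ± 0.0333 (limma, unadjusted p = 0.000129, adjusted p = 0.22). The ZT0 difference was -0.27 and the ZT6 difference -0.03; later in the day they were -0.13 (ZT12) and -0.17 (ZT18), and none of these passed. Over the fits that left out 1 library, the adjusted p over all times ranged from 0.0987 to 0.534. Its 24 h amplitude was 0.02 over both genotypes (adjusted p = 0.857 in limma).

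At ZT0 most members were lower in mutants, though no single one passed, against 0.0167% of all tested genes (limma, adjusted p). Of the members, 7 of 43 were higher in mutants, against 47.5% of all tested genes, and the median difference was -0.07 on the log2 scale, against -0.00975. An unadjusted p under 0.05 was found in 9 members, all lower in mutants (Kmt2a, Kdm1a, Kmt2e, Kdm3b, Setd2, Kdm5a, Kmt2c, Ezh1 and Setd1a), against 4.29% of all tested genes that were lower at this p and 8.46% in either direction. The KMT2 and SETD1 enzymes held 4 of the 9 and the H3K4 demethylases 2. All 7 KMT2 and SETD1 enzymes were lower in mutants, with a median of -0.17, and so were all 4 H3K4 demethylases, with a median of -0.15. Of the 4 class I HDACs, 3 were higher in mutants. These members are measured in the same 8 mice, so their directions are not independent.

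Beside this, markers of several cell types were lower in mutants at ZT0, none of them at an adjusted p under 0.05. None of the 8 slow fibre markers was higher (median -0.33), and they summed to 642 to 1109 FPKM in mutants and 895 to 1754 FPKM in controls. None of the 8 fibroblast markers was higher (median -0.22), with sums of 692 to 1482 FPKM in mutants and 902 to 1802 FPKM in controls. None of the 8 tested macrophage markers was higher (median -0.10), with sums of 95.6 to 157 FPKM in mutants and 117 to 295 FPKM in controls. Of 18 lymphocyte markers 1 was higher (median -0.43), with sums of 3.12 to 83.2 FPKM in mutants and 3.82 to 82.7 FPKM in controls. Of 10 endothelial markers 1 was higher (median -0.10), and 2 had an unadjusted p under 0.05 in limma. Other lists were less one-sided. Of 12 adipocyte markers 6 were higher (median 0.00339), and of 12 skeletal muscle markers 4 (median -0.06). Of 5 tested markers of the neuromuscular junction and denervation 2 were higher (median -0.03). With lymphocyte and adipocyte scores as covariates the members' median at ZT0 was -0.08, and the part of the other markers was not tested. The count of 9 was 9 without the mutant library that stood apart, although 4 of its members changed: Kdm4b, Kdm6b, Kmt2b and Setd1b came in, and Kdm3b, Kdm5a, Kmt2c and Setd2 went out. It was 4 without the library numbered 0 of mutants, 5 without the library numbered 3 of controls, and 2 when only the ZT0 libraries were fitted.

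Kmt2a (MLL1, an H3K4 methyltransferase), chr9:44803355-44881274, had the smallest p at ZT0. Mutants had 2.82, 3.03, 3.42 and 2.90 FPKM at ZT0, and controls 3.47, 4.07, 4.26 and 4.39 FPKM. The genotypes did not overlap, by a narrow gap between 3.42 and 3.47 FPKM. The difference was -0.32 ± 0.0764 (limma, unadjusted p = 0.000272, adjusted p = 0.348). At the other times the differences were 0.05 at ZT6, 0.01 at ZT12 and -0.04 at ZT18, with overlap at each. The test of whether the genotype difference depended on time gave an unadjusted p of 0.00818 and an adjusted p of 0.243 in limma.

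Counting members whose 4 mutant and 4 control libraries did not overlap gave 3 at ZT0 (Kdm3b, Kdm1a and Kmt2a, all lower in mutants), against 2.61% of all tested genes. At ZT6 there were 2 (Setd3 and Setd8, both lower in mutants), against 12.1%. At ZT12 there were 4 (Kdm1a, Kdm3a and Hdac8 lower, Kmt2e higher in mutants), against 7.4%, and at ZT18 there was none, against 2.51%.

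**Figure D4:**
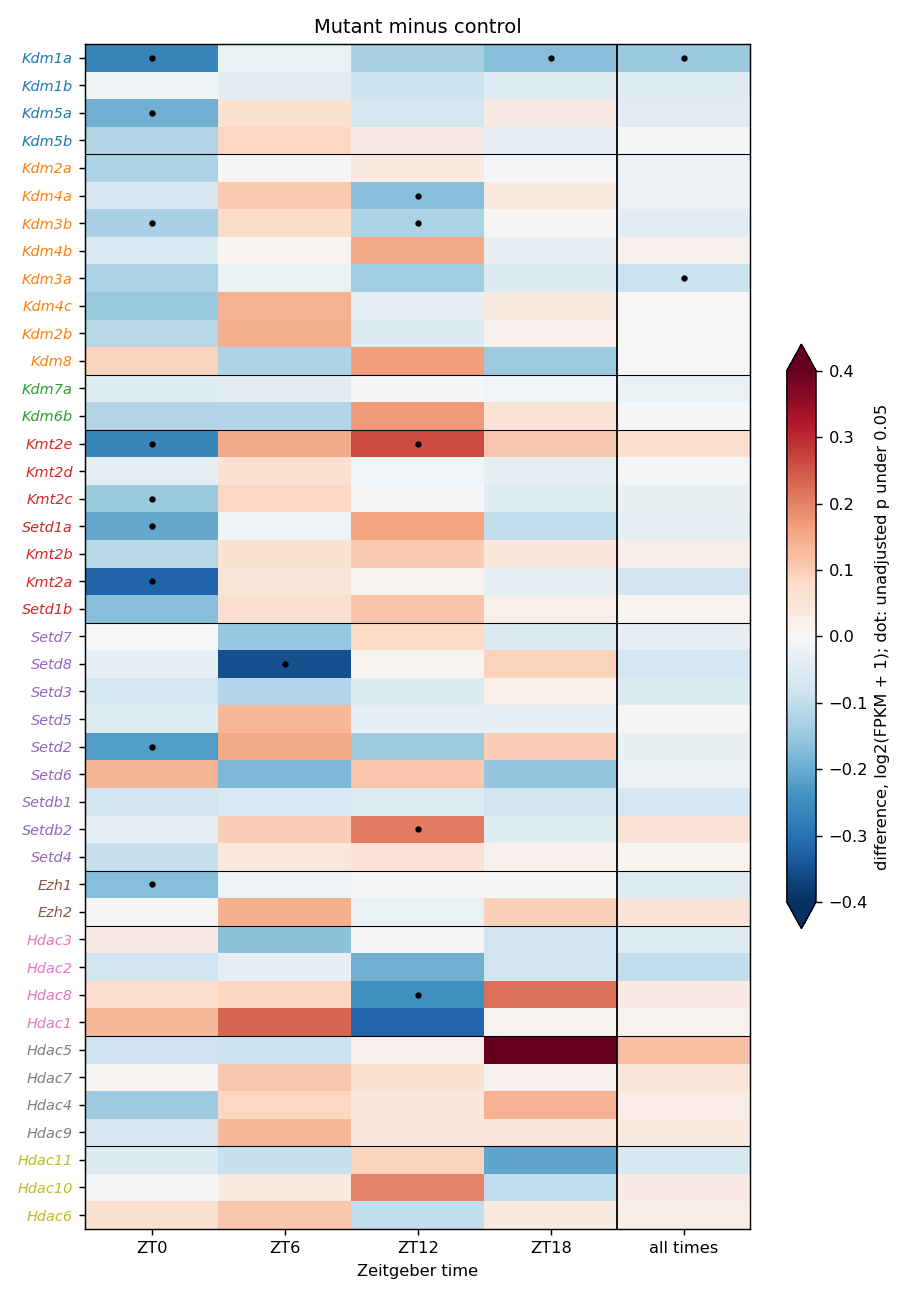
Difference between mutants and controls (mutant minus control, log2(FPKM + 1); blue is lower in mutants) for the 43 tested members, by Zeitgeber time and averaged over times, with class colours on the names; dots mark an unadjusted p under 0.05. The ZT0 column is mostly blue, with 7 of 43 members above 0, and no square passed the adjusted threshold; Hdac5 at ZT18 (0.63) lies beyond the colour scale.

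At ZT6 no member passed (0.0167% of all tested genes did), and 26 of 43 members were higher in mutants, against 42.5%. The members' median difference was 0.05 on the log2 scale, 0.02 with lymphocyte and adipocyte scores as covariates and -0.03 with only genes of at least 5 FPKM on average. Beside this, all 18 lymphocyte markers (median 1.18), 12 adipocyte markers (0.32), 8 tested macrophage markers (0.50) and 8 fibroblast markers (0.48) were higher in mutants at ZT6, none at an adjusted p under 0.05. The lymphocyte markers summed to 5.46 to 113 FPKM in mutants and 3.40 to 35.3 FPKM in controls, and the macrophage markers to 155 to 252 FPKM in mutants and 102 to 135 FPKM in controls. The fibroblast markers summed to 983 to 1984 FPKM in mutants and 725 to 1083 FPKM in controls, and the adipocyte markers to 868 to 2067 FPKM in mutants and 741 to 2052 FPKM in controls. The part of the macrophage and fibroblast markers in the ZT6 values was not tested. Setd8, chr5:124439930-124462307, was the one member with an unadjusted p under 0.05, against 10.4% of all tested genes. At ZT6 it had 46.4, 50.3, 48.3 and 44.1 FPKM in mutants and 63.9, 58.2, 58.0 and 62.4 FPKM in controls. All mutants lay below all controls, and the difference was -0.35 ± 0.123 (limma, unadjusted p = 0.00772, adjusted p = 0.471). With weights for library quality the adjusted p was 0.044. Control libraries averaged 60.6 ± 2.98 FPKM at ZT6 and 46.0 to 50.5 FPKM at the other times (n = 4 each).

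At ZT12 no member passed, against 0.0251% of all tested genes; 5 of 43 had an unadjusted p under 0.05, against 17.4%, and 21 of 43 were higher in mutants, against 63.6%. Of the 5, 2 were higher in mutants, against 12.8% of all tested genes, and 3 lower, against 4.57%. Kmt2e had 9.13, 9.49, 8.70 and 8.97 FPKM in mutants and 7.55, 7.24, 7.04 and 7.76 FPKM in controls, with no overlap. Its difference was 0.26 ± 0.0933 (limma, unadjusted p = 0.00905, adjusted p = 0.185), opposite in sign to that at ZT0, -0.26 (adjusted p = 0.511). The test of dependence on time gave an unadjusted p of 0.00301 for Kmt2e and an adjusted p of 0.223 in limma. Setdb2, an H3K9 methyltransferase, was higher by 0.20 in mutants (limma, adjusted p = 0.191). Hdac8 had 2.80, 2.17, 2.86 and 2.86 FPKM in mutants and 3.41, 3.26, 3.25 and 3.44 FPKM in controls at ZT12. It was picked because its groups did not overlap, and it did not pass the adjusted threshold. The members' median difference at ZT12 was -0.00501, and -0.07 after quantile normalisation; over all tested genes it was 0.06, and -0.00793 after quantile normalisation. Beside this, none of the 8 slow fibre markers was higher in mutants at ZT12 (median -0.74), and 4 had an unadjusted p under 0.05. They summed to 620 to 2170 FPKM in mutants and 1478 to 2502 FPKM in controls. Of the 12 skeletal muscle markers, 3 were higher in mutants (median -0.31) and 6 had an unadjusted p under 0.05, with sums of 70130 to 133100 FPKM in mutants and 102800 to 150100 FPKM in controls. All 18 lymphocyte markers were higher (median 0.43), and so were 7 of 8 tested macrophage markers (0.36) and 9 of 12 adipocyte markers (0.41). No marker passed the adjusted threshold. With lymphocyte and adipocyte scores as covariates the members' median at ZT12 was 0.00562, and the part of the other markers was not tested.

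At ZT18 no member passed, against 0.0167% of all tested genes, and Kdm1a was the one with an unadjusted p under 0.05 in limma, against 2.88%. Higher in mutants were 21 of 43 members, against 44.3%. Beside this, all 18 lymphocyte markers (median 1.07) and all 12 adipocyte markers (0.87) were higher in mutants. Higher were also 5 of 8 tested macrophage markers (0.01), 4 of 12 skeletal muscle markers (-0.03), 1 of 8 fibroblast markers (-0.21) and 0 of 8 slow fibre markers (-0.07). No marker passed the adjusted threshold, and the part of the muscle and fibroblast markers was not tested. For dependence of the genotype difference on time no member passed, as no tested gene did (0%); 6 of 43 had an unadjusted p under 0.05, against 14.1%.

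Hdac5, chr11:102195747-102230172, shares its entry with the microRNA gene Mir8101, which overlaps it. At ZT18 it had 145, 25.8, 25.0 and 23.9 FPKM in mutants and 24.4, 21.4, 25.9 and 27.6 FPKM in controls. The value of 145 FPKM stands alone: the other 31 libraries lay between 17.6 and 32.7 FPKM. The ZT18 difference was 0.63 with that library (limma, unadjusted p = 0.0533, adjusted p = 1) and 0.01 without it. Hdac5 was the one tested gene in which that library lay more than 1 log2 unit above all others.

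**Figure D5:**
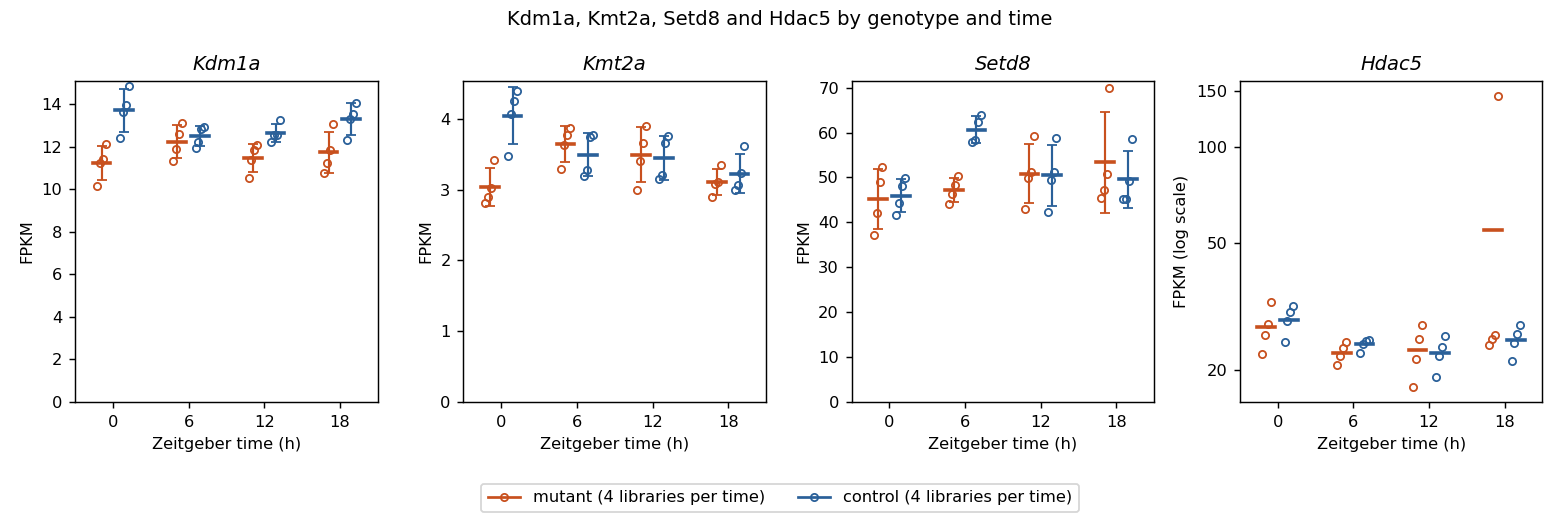
FPKM of Kdm1a, Kmt2a, Setd8 and Hdac5 by Zeitgeber time (hours), with mutants left of controls; circles are libraries (4 per group), thick lines means and error bars SD, with a log axis and no error bars for Hdac5. Mutant libraries lie below control libraries for Kdm1a and Kmt2a at ZT0 and for Setd8 at ZT6, and 1 mutant library of Hdac5 reaches 145 FPKM at ZT18.

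Partners of these enzymes were counted from lists by known role, and the counts of rhythmic genes are to be read against the 11.4% of all tested genes. Of 8 tested PRC2 partners, 1 was rhythmic over both genotypes: Jarid2, which guides PRC2 to chromatin, had an amplitude of 0.23 and a peak at ZT14.7 (limma, adjusted p = 5.56e-05), and it passed in each genotype. Of 18 tested HDAC co-repressor partners, 4 were rhythmic, among them Tbl1xr1, Sap30 and Tbl1x. Tbl1xr1, a subunit of HDAC3 co-repressor complexes, peaked at ZT0.123 with an amplitude of 0.20. Sap30, a SIN3 subunit, had an amplitude of 0.33 with a peak at ZT3.44, and Tbl1x one of 0.14 with a peak at ZT3.2. Of 9 partners of the KMT2 and SETD1 complexes, 1 (Paxip1) was rhythmic, of 12 histone acetyltransferases 1 (Ncoa1), of 19 other histone methyltransferases 2 (Smyd5 and Prmt2), and of 8 tested MEF2 and class IIa HDAC target genes none. No gene of these lists differed between genotypes at an adjusted p under 0.05, at any time or over all times (limma). At ZT0 an unadjusted p under 0.05 was found in 3 of 19 other methyltransferases, 2 of 12 acetyltransferases, 1 of 9 KMT2 and SETD1 partners, 1 of 18 co-repressor partners, 1 of 8 MEF2 and class IIa HDAC targets and 0 of 8 PRC2 partners, against 8.46% of all tested genes. The lists went different ways at ZT0, where 47.5% of all tested genes were higher in mutants. Higher in mutants were 0 of 8 PRC2 partners (median -0.07), 3 of 18 co-repressor partners (-0.09), 3 of 12 acetyltransferases (-0.09) and 1 of 8 MEF2 and class IIa HDAC targets (-0.05). For other methyltransferases it was 9 of 19 (median -0.00532), and for KMT2 and SETD1 partners 6 of 9 (median 0.02).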

How the data were processed

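RNA of gastrocnemius from 32 mice was sequenced. Trizol and columns were used for extraction, stranded mRNA libraries were read from 1 end in 4 pools of 8 samples, and CASAVA demultiplexed the reads, per the labels' protocols. The authors deposited FPKM values, 1 per gene and library; per the submitters' processing notes the build was mm10. The aligner, the quantifier and the annotation are not given in the sources used here. Columns name genotype, time and a library number from 0 to 3, which does not identify the mouse, so libraries were not paired. Each sample has its own number in the labels and was taken as 1 mouse; where this is wrong, p-values measure technical spread. FPKM carry no counts, so depth is unknown, and no interval from counts is given. A deposited table of the authors' rhythm statistics was not used here.

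Tests used log2(FPKM + 1) of the 11975 genes (of 16634) that reached 1 FPKM in 4 or more libraries; this scale understates changes of low genes. Group means over the 32 libraries were fitted for all tested genes with limma 3.58.1 in R 4.3.3 (24 residual degrees of freedom, and 3.37 from a trended prior), with 2-sided p-values adjusted by Benjamini-Hochberg over all tested genes and calls at 0.05. The code was tested on simulated data. Starts in the table are counted from 0, and 1 was added: of 7261 entries with the same end as in RefSeq, 4635 started 1 base before the RefSeq start.

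The members, the role lists and the tests were chosen with earlier results of these data known. Named in full were up to 5 members that passed each test, and the 2 with the smallest p where none passed. Also named in full were the highest and lowest member of each role list. So were 10 with known roles in muscle or the clock (Ezh1, Ezh2, Hdac3, Hdac4, Hdac5, Kdm1a, Kdm5a, Kmt2a, Setd3 and Setd7). Members outside this rule are named in counts or with some values, after their values were seen. Alternatives were a pseudocount of 0.1, no filter, a mean of at least 5 FPKM, quantile normalisation, limma array weights, lymphocyte and adipocyte scores as covariates, a fit of the compared groups only, and leaving out each library.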

Additional observations from a re-analysis of the deposited data

Results flagged for a closer look

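In 224 groups of 4 libraries of the 28 named genes, 6 had 1 library far from the other 3; chance gives about 1 in 20 groups. Hdac5 had 145 FPKM in the library numbered 0 of mutants at ZT18, and the others had 23.9 to 25.8 FPKM. Hdac6 had 3.15 FPKM in the library numbered 2 of mutants at ZT0, against 2.48 to 2.49 FPKM in the others. Kdm5a had 4.52 FPKM in the library numbered 3 of mutants at ZT12, and 3.70 to 3.74 FPKM in the others. Hdac4 had 5.42 FPKM in the library numbered 1 of mutants at ZT6, below 6.95 to 7.19 FPKM in the others. In controls, Hdac3 had 46.8 FPKM in the library numbered 0 of ZT12, above 41.6 to 42.4 FPKM in the others. Setd6 had 5.57 FPKM in the library numbered 0 of controls at ZT6, below 6.78 to 6.94 FPKM in the others.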

How the results depend on the processing

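The counts of members called for genotype over all times, at ZT0 and at ZT18, for dependence on time and for a difference in rhythm were 0 in every alternative run. Array weights gave 1 member for genotype at ZT6 (Setd8), 11 for the rhythm in controls and 3 for the rhythm in mutants (Ezh1, Kmt2c and Kmt2e). Leaving out 1 library gave 0 to 1 member for genotype at ZT12, with Kdm4a called without the library numbered 3 of mutants at ZT12. For the 12 h component it gave 0 to 1, with Setd4 called without the library numbered 3 of mutants at ZT0 or that numbered 2 of mutants at ZT12, and Setd4 was the 1 member called with no filter. For the rhythm over both genotypes the count was 8 to 11 when 1 library was left out and 6 with a mean of at least 5 FPKM, which also leaves fewer members tested. For the rhythm in controls it was 1 to 6 when 1 library was left out. For the count of members lower in mutants at ZT0, an alternative chosen after seeing the data, the range was 4 to 10 when 1 library was left out and 2 to 9 otherwise. Where a setting moved a count, the cause was not tested. Rhythms of Kmt2e, Kdm6b, Ezh1 and Setd1b over both genotypes passed in all alternatives run. No paired analysis was possible because library numbers do not identify mice. Depth is unknown, and 4 libraries per group and 4 times limit what could be detected.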

Other observations

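Hdac1, the second most variable member after Hdac5, had a within-group SD of 0.298 on the log2(FPKM + 1) scale, larger than in 85.9% of tested genes. It ranged from 1.19 to 2.998 FPKM in mutants and from 1.26 to 2.86 FPKM in controls. Its close relative Hdac2, which shares most of its complexes, ranged from 25.1 to 47.5 FPKM in mutants and from 35.6 to 48.8 FPKM in controls.

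The smallest within-group SD among members, 0.0638 for Kdm3b, was matched or undercut by 0.0668% of tested genes. Kdm1a, Kmt2c and Kdm2a were also among the steadiest, with SDs of 0.0834, 0.0839 and 0.0845.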
